A study of Mus musculus with 6 samples.

Results

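Imprinted genes are expressed from the copy inherited from 1 parent. The 33 genes described here are known imprinted genes of the mouse, and they were examined in hearts of male C57BL/6 mice aged 2 months (young, 3 hearts) or 22 months (old, 3 hearts), all fed normal chow and given no treatment that the labels name. The members were found by name in the deposited count table. Of the 33 genes, 32 had a row and Peg13 had none; because Snrpn, Rian and Rtl1 each had a pair of rows under separate identifiers, the genes filled 35 of the 44200 rows, of which 30 held at least 1 read. The low-count filter left 26 rows of 25 genes among the 14413 genes tested. The list was chosen by prior knowledge of imprinting, but also with results of this same age comparison in view, in which Nnat and Ddc were already known to be among the larger falls. The age differences and calls below therefore describe the members and are no independent test of them.

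Imprinting is set by DNA methylation laid down in one parental germline at control regions, each of which governs a cluster of neighbouring genes. Long noncoding RNAs are often made from one parental copy of a cluster while protein-coding neighbours are made from the other. Many paternally expressed genes promote fetal growth, many maternally expressed genes restrain it, and a number of both kinds are highly active in the fetal heart and fall silent or decline after birth. The libraries counted reads per gene without separating parental alleles, so every level below is the sum of both copies, and the expressed allele given for each gene is background knowledge. These were samples of heart tissue, which holds many cell types, and fewer cells of a type and less RNA per cell cannot be told apart.

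The 6 libraries held between 13624514 and 15525942 counts on named genes. Levels are given in CPM (counts scaled to a common library size, with TMM factors). Cardiomyocyte markers such as Myh6 and Tnnt2 summed to 61451 to 69247 CPM in young hearts and 53139 to 59252 CPM in old hearts. The extraction text of the labels names a different material, NRVMs. Those are cardiomyocytes too, so these sums cannot decide between the materials. Old heart 1 stood apart from the other old hearts: on the first principal component, which held 56.0% of the variance, the young hearts lay at -38.3 to -33.4, old heart 1 at 15.0, and old hearts 2 and 3 at 45.9 and 48.0. Summed markers of atrial cardiomyocytes were also highest in old heart 1, at 396.5 CPM against 78.3 to 167.5 CPM in young hearts and 93.1 and 132.4 CPM in the other old hearts, and their part in the results was not tested. How much atrium each sample held was not tested either. Values without old heart 1 are given where that heart changed a result.

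In old hearts 6 imprinted genes were lower and 2 were higher, by edgeR's quasi-likelihood test with Benjamini-Hochberg adjustment over all genes tested and a threshold of 0.05. The genes that fell were Gnas, Ddc, Mest, Cdkn1c, Nnat and Snrpn, and those that rose were Impact and Zrsr1; the other 18 rows tested were not called. The adjusted p-values of the called genes ran from 0.000886 for Gnas to 0.0487 for Snrpn. Among all genes tested, 15.1% were called, 8.72% higher and 6.36% lower. The fold changes of the imprinted genes had a median of -0.29 on the log2 scale, with 19 rows below 0 and 7 above, while the median over all genes was 0.02. The 3 old hearts lay entirely above or below the 3 young hearts in 13 of the 26 rows, 8 of them below, and in 37.2% of all genes tested. Without old heart 1 the calls were 10 lower and 4 higher, when 37.9% of all genes were called. The calls were 4 lower and 1 higher with each young heart left out in turn, when 3.63, 3.65 and 4.18% of all genes were called. They were 4 lower and 2 higher without old heart 2 (10.4% of all genes) and 5 lower and 2 higher without old heart 3 (6.23%).

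**Figure D1:**
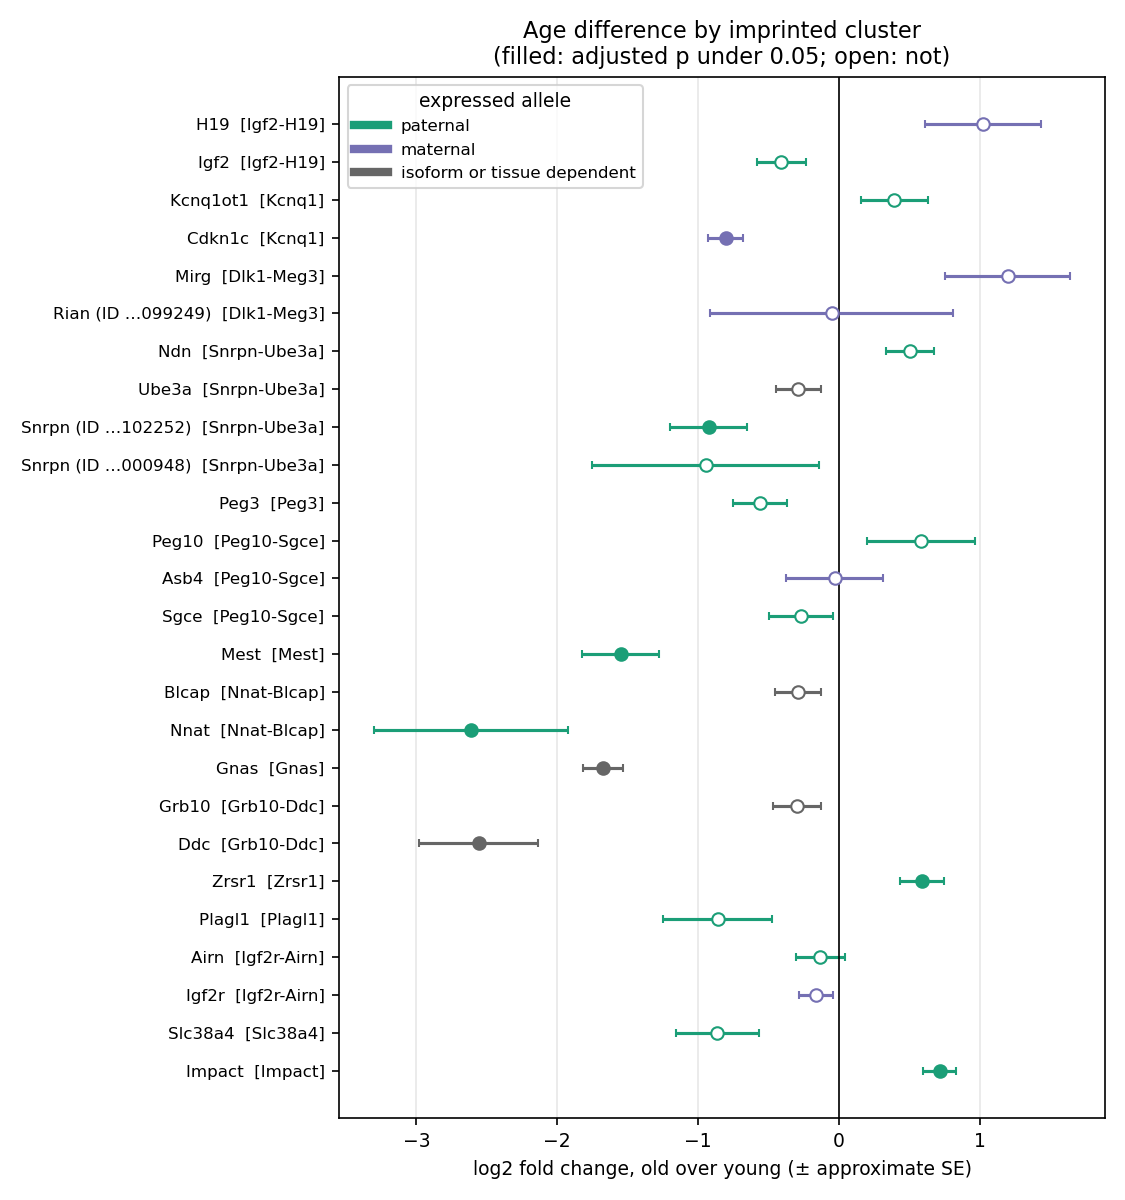
Log2 fold change of old over young for the 26 imprinted rows tested, grouped by cluster, with bars for the approximate standard error (n = 3 hearts per age). Colour gives the expressed allele, filled points mark the 8 rows called, and Nnat and Ddc lie farthest to the left at -2.61 and -2.56.

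Grouped by expressed allele, 15 rows of paternally expressed genes were tested, of which 2 rose and 3 fell, with a median of -0.41 (log2). The share called was 33.3%, against 15.1% of all genes tested. Of 6 maternally expressed rows, 1 fell and none rose (16.7% called, near the share of all genes), and their median was -0.04. The 5 genes whose imprinting depends on isoform or tissue (Gnas, Ddc, Grb10, Blcap and Ube3a) all had values below 0. Of these, 2 (40.0%) were called lower, and the median was -0.29. The called members were all protein-coding. The 5 noncoding RNAs tested, H19, Kcnq1ot1, Airn, Mirg and Rian, had a median of 0.39 and no call, although 2 of them had an unadjusted p below 0.05. These groups of the list were not tested against each other.

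Gnas encodes the alpha subunit of the stimulatory G protein, which couples beta-adrenergic receptors to adenylyl cyclase, and is expressed from both alleles in most tissues, with imprinted isoforms from upstream promoters. It lies on chromosome 2 at 174284320 to 174346744 (plus strand, GRCm38). Its level was 62.9, 55.0 and 66.9 CPM in the young hearts and 20.1, 16.7 and 20.97 CPM in the old hearts. The groups were widely separated, and the 3 old hearts, old heart 1 included, were alike. The fall was -1.68 ± 0.14 (log2 fold change ± approximate SE, here and below, n = 3 per age), or 3.19-fold. The antisense transcript Nespas and the protein-coding model Gm20721, which share exon bases with Gnas on the other strand, held 0 to 4 counts in any library.

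Mest (Peg1), a paternally expressed gene for an enzyme of the alpha/beta-hydrolase family that is abundant in mesoderm, lies on chromosome 6 at 30723547 to 30748465 (plus strand). Its young levels were 5.84, 8.54 and 6.62 CPM and its old levels 3.00, 2.41 and 1.71 CPM. Every old heart was below every young one, and Mest fell by 1.55 ± 0.27 on the log2 scale (2.93-fold). Copg2 shares 23.1% of the exon bases of Mest on the opposite strand, and its own value was -0.57 ± 0.17 (edgeR adjusted p = 0.0527). The strand setting of the counting is not given in the sources used here, so reads in the shared bases cannot be assigned to either gene.

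Ddc encodes aromatic L-amino acid decarboxylase, which makes dopamine and serotonin, and a heart-specific form is known to be paternally expressed in the developing myocardium. The gene lies on chromosome 11 at 11814101 to 11898144 (minus strand). In young hearts it stood at 6.87, 5.01 and 4.50 CPM, and in old hearts at 1.29, 1.13 and 0.296 CPM, the last resting on 4 counts. No old heart came near the young range, and Ddc fell by 2.56 ± 0.42 (log2). Its neighbour Grb10, an adaptor that restrains insulin and IGF signalling, stood at 79.3, 73.6 and 88.0 CPM in young hearts and 51.6, 64.9 and 80.0 CPM in old ones. The Grb10 ranges overlapped at old heart 3, and its value of -0.29 ± 0.17 was not called. The ratio of Grb10 to Ddc counts was 11.6, 14.7 and 19.6 in young hearts and 40.1, 57.2 and 270.0 in old hearts.

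Nnat encodes neuronatin, a small membrane protein of the endoplasmic reticulum, and is paternally expressed from within an intron of Blcap (chromosome 2, 157560078 to 157562522, plus strand). It was low at every age: young hearts held 26, 43 and 36 counts (1.79, 2.91 and 2.31 CPM) and old hearts 15, 1 and 1 counts (0.918, 0.0708 and 0.0741 CPM). Old hearts 2 and 3 were nearly empty, while old heart 1 lay between them and the young hearts. Nnat fell by 2.61 ± 0.69 (log2), the largest fitted change of the members. Summed over hearts, the young level was 6.05 times the old, with a counting interval of 3.6 to 10.8 (95%, Clopper-Pearson), and 32.3 times that of old hearts 2 and 3 alone (8.72 to 270.2). These intervals cover counting error only. The call did not hold without young heart 1, 2 or 3 (adjusted p = 0.0878, 0.124 and 0.0986), or without old heart 2 or 3 (0.0771 and 0.113). Without old heart 1 the fitted value was -4.86. Blcap, the host gene, stood at 34.4, 39.2 and 41.0 CPM against 26.0, 38.3 and 29.4 CPM, and its value of -0.29 ± 0.16 was not called.

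Cdkn1c encodes p57KIP2, an inhibitor of cyclin-dependent kinases and a maternally expressed brake on growth in the Kcnq1 cluster (chromosome 7, 143458339 to 143461050, minus strand). Its young levels of 52.4, 54.7 and 59.0 CPM stood clear of the old levels of 33.8, 32.01 and 29.3 CPM. With -0.80 ± 0.12 (log2, 1.75-fold), it was the only maternally expressed member called. Kcnq1ot1, the paternally expressed noncoding RNA that silences the cluster in cis, stood at 5.97, 5.15 and 4.50 CPM in young and 5.02, 8.22 and 7.34 CPM in old hearts. Its ranges overlapped at old heart 1, and its value was 0.39 ± 0.24, which was not called with all hearts and was 0.58 ± 0.21 (adjusted p = 0.0496) without old heart 1. The ratio of Cdkn1c to Kcnq1ot1 counts was 8.77, 10.6 and 13.1 in young hearts and 6.73, 3.9 and 3.99 in old ones, with no overlap. Kcnq1ot1 has 93092 exon bases and overlaps Kcnq1 on the opposite strand. With the strand setting of the counting not given, unspliced Kcnq1 RNA may add to the Kcnq1ot1 counts, which was not tested. Phlda2, a maternally expressed growth restrainer known mainly from placenta, held no count in young hearts and 0, 1 and 1 in old hearts. The antisense model Gm44732, which shares 30.7% of the exon bases of Cdkn1c, had no row of its own.

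Snrpn encodes a small nuclear ribonucleoprotein of the spliceosome and is paternally expressed from the Prader-Willi and Angelman cluster on chromosome 7. The row that held most of its reads (ENSMUSG00000102252) stood at 24.0, 19.2 and 23.3 CPM in young hearts and 17.4, 7.58 and 9.86 CPM in old hearts. Old heart 1 lay nearest to the young range, and the row fell by 0.93 ± 0.27 (log2). It lost its call without young heart 1, 2 or 3 (adjusted p = 0.153, 0.101 and 0.135) and without old heart 2 or 3 (0.102 and 0.165), and narrowly missed it on the deposited FPKM values (0.0502 and 0.0522) and with a stricter low-count filter (0.0503). Without old heart 1 its value was -1.35. The second row (ENSMUSG00000000948), which covers 27.3% of the exon bases of the first, held 15, 24 and 22 counts in young and 27, 0 and 5 counts in old hearts. Its value of -0.95 ± 0.81 was called only without old heart 1 (-2.84, adjusted p = 0.017). How reads were split between these rows is not given in the sources used here, so the level of either is uncertain.

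Ndn, the paternally expressed gene for necdin, a growth-suppressing MAGE protein of neurons and muscle, lies in the same cluster. Its young levels were 8.10, 6.78 and 8.04 CPM and its old levels 10.5, 10.5 and 11.6 CPM. All old hearts were higher, but the value of 0.51 ± 0.17 was not called (edgeR adjusted p = 0.0707), except without old heart 1 (0.034) and on the deposited FPKM values (0.0446 and 0.0452). The ratio of Ndn to Snrpn counts was 0.338, 0.352 and 0.344 in young hearts and 0.604, 1.38 and 1.17 in old hearts. Ube3a, a ubiquitin ligase that is maternally expressed in neurons and expressed from both alleles elsewhere, stood at 15.8, 14.4 and 16.8 CPM against 14.7, 12.5 and 11.3 CPM, with a value of -0.29 ± 0.16 that was not called. Snhg14 shares 8.7% of the exon bases of Ube3a on the opposite strand and held 279 to 516 counts per library. Gm44560 (9.8%) and 9330162G02Rik (8.7%) also overlap Ube3a there and had no row. With the strand setting not given, reads in the shared bases cannot be assigned. Magel2, another paternally expressed gene of the cluster, had no count in any library.

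Impact, a paternally expressed inhibitor of the stress kinase GCN2, rose from 29.0, 28.3 and 28.3 CPM in young hearts to 47.3, 48.9 and 44.4 CPM in old hearts. The young values were almost identical and no old value approached them. The rise was 0.72 ± 0.12 (log2, 1.64-fold). Zrsr1, a retrogene for a splicing factor related to U2AF that lies in an intron of Commd1 and is expressed from the paternal copy, stood at 15.9, 14.8 and 15.6 CPM in young and 27.4, 23.1 and 19.3 CPM in old hearts. Its rise of 0.59 ± 0.16 lost its call without young heart 1, 2 or 3 (adjusted p = 0.118, 0.145 and 0.136), without old heart 2 (0.0671) and in the fit with a replicate block (0.0561). Commd1 shares 9.2% of the exon bases of Zrsr1 on the opposite strand and had a value of 0.32 ± 0.12, which was not called.

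**Figure D2:**
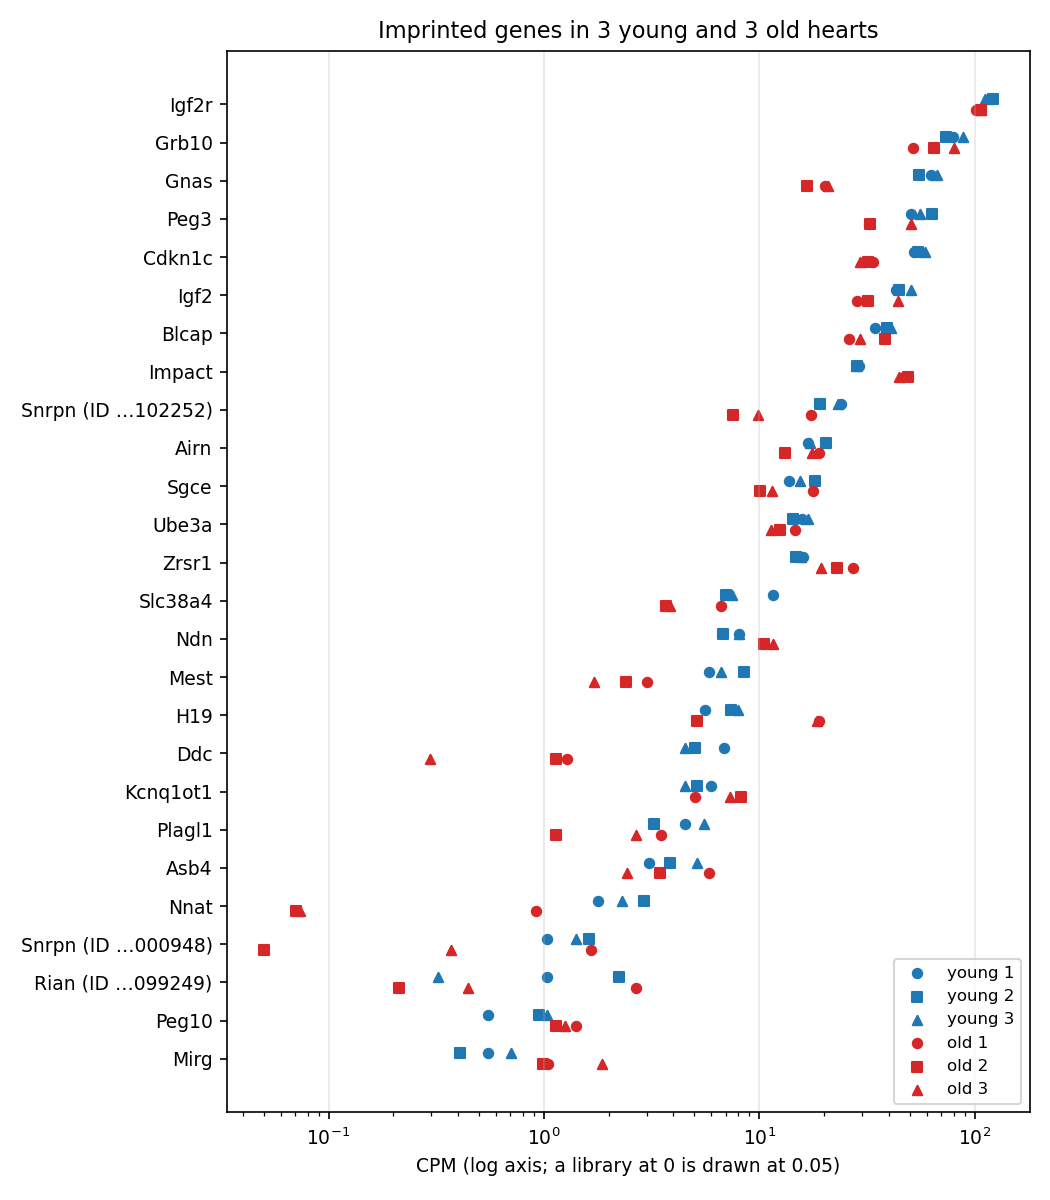
CPM of the 26 imprinted rows tested in each of the 3 young (blue) and 3 old (red) hearts, on a log axis, ordered by young mean; the marker shape gives the heart number. Gnas and Cdkn1c show a clear gap between ages at high levels, while the gap of Nnat rests on old hearts 2 and 3.

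To show what lies in front of called genes, the 200 bases before the RefSeq start were read from RefSeq sequence (GRCm38.p6), 5′ to 3′ on the strand of the gene, with CpG dinucleotides, the sites of methylation, in capitals. Several of these genes have more than 1 RefSeq start, and windows that run into annotated exons are not printed in full. The 4 Snrpn windows hold no exon bases, and only 1 of them is printed. It adjoins the outer end of the row that held most Snrpn reads. Which start was in use in these hearts was not tested. One window is given for Gnas (chr2:174284120-174284319, plus strand, before the most upstream of its starts), Mest (chr6:30737850-30738049, plus), Snrpn (chr7:60140226-60140425, minus) and Zrsr1 (chr11:22971805-22972004, plus), and both windows for Ddc (chr11:11890409-11890608 and chr11:11898145-11898344, minus). For Nnat only the 70 bases of its window outside annotated exons are printed (chr2:157560008-157560077, plus).
Gnas: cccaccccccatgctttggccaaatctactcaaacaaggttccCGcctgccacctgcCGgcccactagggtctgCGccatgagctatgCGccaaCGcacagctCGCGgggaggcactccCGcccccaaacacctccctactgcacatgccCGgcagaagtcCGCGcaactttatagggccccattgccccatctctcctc
Mest: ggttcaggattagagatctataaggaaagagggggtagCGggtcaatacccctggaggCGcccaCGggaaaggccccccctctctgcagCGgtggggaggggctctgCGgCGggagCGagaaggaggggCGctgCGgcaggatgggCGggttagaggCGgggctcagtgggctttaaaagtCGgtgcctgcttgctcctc
Nnat: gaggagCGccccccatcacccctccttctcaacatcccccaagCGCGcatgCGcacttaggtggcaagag
Snrpn: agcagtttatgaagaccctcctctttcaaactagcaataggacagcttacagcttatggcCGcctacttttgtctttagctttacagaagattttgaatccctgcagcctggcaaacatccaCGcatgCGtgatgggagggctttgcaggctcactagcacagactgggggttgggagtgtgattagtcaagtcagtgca
Ddc, inner start: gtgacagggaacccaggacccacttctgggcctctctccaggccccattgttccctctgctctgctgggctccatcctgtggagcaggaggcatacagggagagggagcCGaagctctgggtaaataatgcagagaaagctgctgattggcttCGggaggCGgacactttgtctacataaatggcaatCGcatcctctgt
Ddc, outer start: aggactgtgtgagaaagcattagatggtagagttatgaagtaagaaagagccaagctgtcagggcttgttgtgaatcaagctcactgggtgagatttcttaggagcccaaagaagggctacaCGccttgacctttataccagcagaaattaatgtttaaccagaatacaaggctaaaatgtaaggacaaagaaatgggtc
Zrsr1: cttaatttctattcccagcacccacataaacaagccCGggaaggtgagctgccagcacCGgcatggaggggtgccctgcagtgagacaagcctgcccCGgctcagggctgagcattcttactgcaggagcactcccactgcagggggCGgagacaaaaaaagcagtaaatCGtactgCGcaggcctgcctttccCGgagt
Of the windows printed, that of Mest held 12 CpGs, that of Gnas 11 and that of Zrsr1 7, while the Ddc windows held 4 and 1. The other Gnas windows, which overlap annotated exons, held 17, 18 and 23 CpGs, and the other Mest windows 7 and 12. The 4 Snrpn windows held between 2 and 4 CpGs, and the printed one 3. The median over 32851 RefSeq windows of the same length was 5, and over the 43 windows of 26 imprinted genes it was 7. Cdkn1c and Impact are named only. The hexamer TGCCGC, bound by the imprint-protecting zinc finger protein ZFP57 when methylated, was searched on both strands and can overlap a CpG by its own letters. It occurred in 7.37% of all windows and in 5 of the 43 member windows, which belong to 4 of the 26 genes: Meg3, Mest, Plagl1 and Zim1. Both Mest windows that held it overlap, and it is the same site in each. The letters GGGGCCCC, taken for the zinc finger protein PLAGL1, occurred in 0.767% of all windows and in no member window, and GCCATNTT, taken for YY1, in 3.04% and in 1 member window, of Slc38a4. A match is a description of these letters and not a bound site.

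The ligand, receptor and noncoding partners of the IGF system are expressed from opposite parental copies, Igf2 from the paternal and H19 and Igf2r from the maternal. Igf2, a fetal growth factor, stood at 43.3, 44.6 and 50.7 CPM in young hearts and 28.4, 32.2 and 44.1 CPM in old hearts. Old heart 3 reached the young range, and the value of -0.41 ± 0.17 was not called. A second model on the same strand, Gm49394, covers 62.8% of the exon bases of Igf2 and had no row. H19, a noncoding RNA made from the maternal copy of the same region, stood at 5.63, 7.39 and 7.97 CPM in young hearts and 18.97, 5.17 and 18.6 CPM in old hearts. Old heart 2 was the lowest of all 6 hearts and the other old hearts were the highest. The value of 1.03 ± 0.41 was not called (edgeR adjusted p = 0.118), except without old heart 2 (1.42, adjusted p = 0.00547), with no low-count filter (0.0168) and by DESeq2 (0.0439). The ratio of Igf2 to H19 counts was 7.7, 6.05 and 6.36 in young hearts and 1.5, 6.22 and 2.37 in old ones.

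Igf2r, the receptor that carries IGF2 to lysosomes, was the most counted member, at 120.1, 122.2 and 111.8 CPM in young hearts and 101.7, 107.3 and 107.2 CPM in old hearts. The groups did not overlap, yet the difference was small, at -0.16 ± 0.12, and not called. Airn, the paternally expressed antisense RNA that silences Igf2r, stood at 16.9, 20.4 and 17.3 CPM against 18.97, 13.2 and 17.6 CPM, with a value of -0.13 ± 0.17 whose sign turned without old heart 2 (0.0057). The ratio of Igf2r to Airn overlapped between ages. Both genes overlap in position on opposite strands, and unspliced Igf2r RNA may likewise add to the Airn counts, which was not tested.

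**Figure D3:**
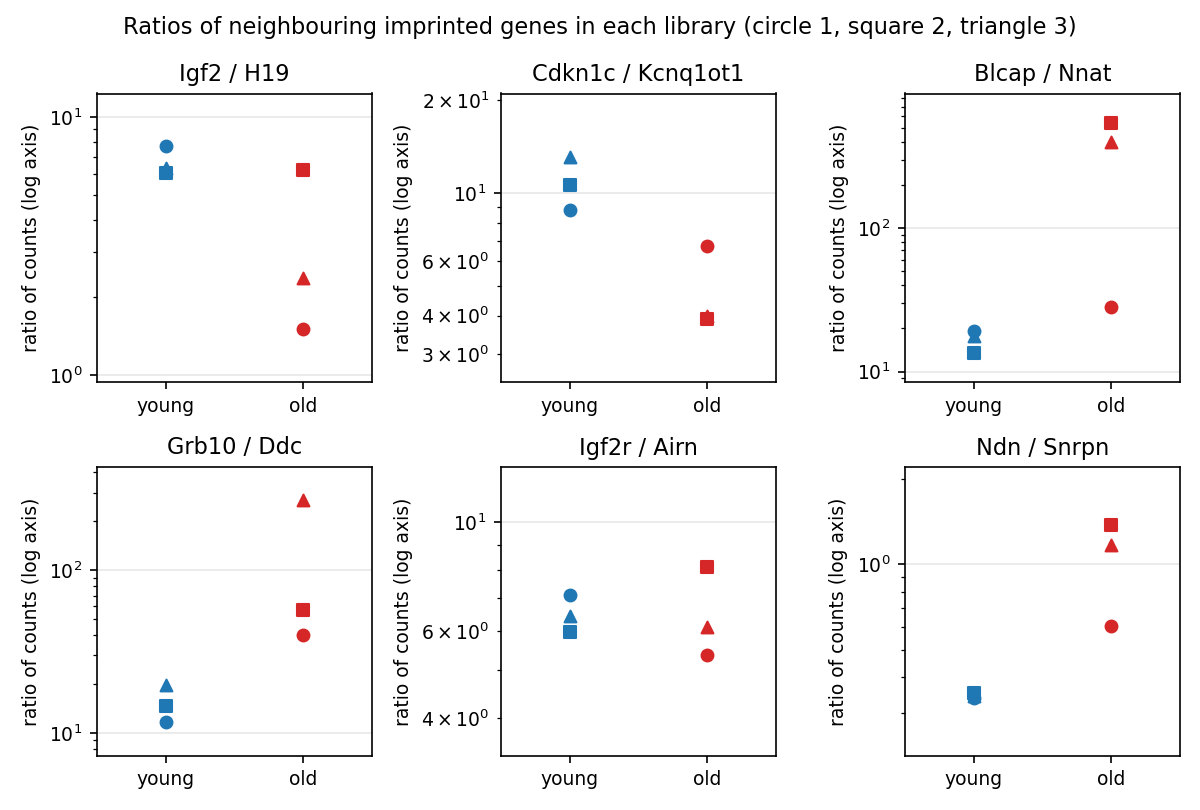
Ratio of counts of neighbouring imprinted genes in each heart, by age, on log axes that differ between panels. The Cdkn1c to Kcnq1ot1 ratio was lower in every old heart, the ratios over Nnat, Ddc and Snrpn were higher, and Igf2 to H19 and Igf2r to Airn overlapped between ages.

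Of the fixed list of 20 further genes of the IGF axis, 15 were tested and 2 (13.3%) were called, against 15.1% of all genes, with a median of 0.03. Igf1r, the signalling receptor for IGF1 and IGF2, was lower in old hearts (-0.92 ± 0.20, edgeR adjusted p = 0.0177), and Igfals, a carrier of circulating IGF, was higher (0.97 ± 0.28, adjusted p = 0.0469). The IGF axis count of 2 was 0 without young heart 2 or 3 or old heart 3, 1 without young heart 1, and 7 without old heart 1, when 37.9% of all genes were called.

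Peg3, Slc38a4 and Plagl1 had negative values that missed the threshold. Peg3, a paternally expressed zinc finger protein, stood at 50.5, 63.8 and 55.8 CPM in young and 32.3, 32.6 and 50.8 CPM in old hearts, a value of -0.56 ± 0.19. Of the old hearts, only heart 3 reached the young range. Peg3 was called without old heart 3 (-0.806, adjusted p = 0.0254), with no low-count filter (0.0258) and by DESeq2 (0.0478). Slc38a4, an amino acid transporter expressed from the paternal copy, stood at 11.6, 6.98 and 7.46 CPM against 6.67, 3.68 and 3.85 CPM (-0.86 ± 0.29), with no overlap. Plagl1 (Zac1), a zinc finger regulator of a wider network of imprinted genes, stood at 4.53, 3.25 and 5.53 CPM against 3.49, 1.13 and 2.67 CPM (-0.86 ± 0.39). In both genes old heart 1 was nearest to the young hearts, and without it Slc38a4 was called at -1.2 (adjusted p = 0.00631) and Plagl1 at -1.23 (0.032). Slc38a4 was also called in the fit with a replicate block (0.03), with no low-count filter (0.0239) and by DESeq2 (0.0378).

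The Peg10 and Sgce cluster showed no call. Sgce, which encodes epsilon-sarcoglycan of the muscle membrane complex, stood at 13.8, 18.2 and 15.4 CPM in young and 17.7, 10.1 and 11.4 CPM in old hearts (-0.27 ± 0.23), and was called only without old heart 1 (-0.559, adjusted p = 0.0229). Peg10, a gene derived from a retrotransposon, held 8 to 16 counts in young and 16 to 23 in old hearts (0.58 ± 0.38). Asb4, a maternally expressed subunit of ubiquitin ligases, stood at 3.09, 3.86 and 5.14 CPM against 5.87, 3.47 and 2.45 CPM (-0.03 ± 0.34), and its sign turned without young heart 3 (0.163), old heart 2 (0.0563) and old heart 3 (0.215).

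The Dlk1 and Meg3 cluster was close to empty. Dlk1, a paternally expressed ligand related to Notch ligands, and both rows of Rtl1 held no count in any library, and Usp29 of the Peg3 cluster also held none. A count of 0 allows up to 3 counts, or 0.184 to 0.222 CPM per library. Meg3, the maternal noncoding RNA that heads the cluster, held 2, 0 and 2 counts in young and 4, 5 and 1 in old hearts. Mirg held 8, 6 and 11 counts against 17, 14 and 25, with every old heart higher and a value of 1.20 ± 0.44 that was not called. The Rian row with more reads (ENSMUSG00000099249) was erratic, at 15, 33 and 5 counts in young and 44, 3 and 6 in old hearts, and its value of -0.05 ± 0.86 turned positive without young heart 2 (0.759), old heart 2 (0.428) or old heart 3 (0.312). Its other row (ENSMUSG00000097451) held 0, 0 and 2 counts against 3, 0 and 0. Zim1, a maternally expressed neighbour of Peg3, held 11, 8 and 4 counts against 2, 13 and 3. Of 74 microRNA genes that RefSeq places inside the clusters, 67 had a row and 2 had a read, with 3 reads in all 6 libraries. Whether the libraries kept short RNAs was not examined, so these reads are no measure of mature microRNAs.

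**Figure D4:**
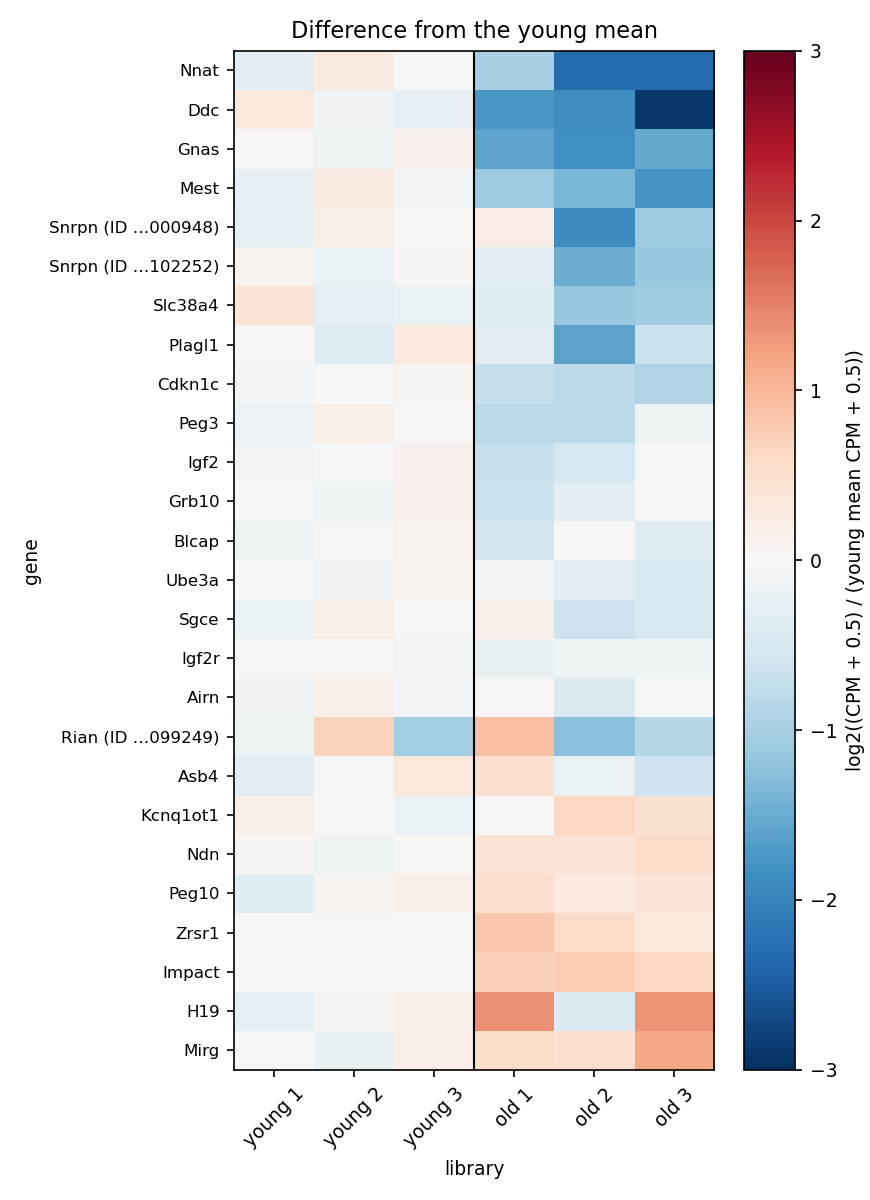
Log2 difference of each heart from the young mean, as log2((CPM + 0.5)/(young mean + 0.5)), for the 26 imprinted rows tested, ordered by fitted fold change. Blue is lower and red higher; old heart 1 is paler than old hearts 2 and 3 for Nnat and both Snrpn rows, but not for Gnas or Impact.

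Across the members old heart 1 was the old heart nearest to the young mean in 11 of the 26 rows, or 42.3%, and in 48.8% of all genes tested. The median difference of the members from the young mean was -0.15 in old heart 1, -0.48 in old heart 2 and -0.41 in old heart 3. All 3 old hearts were thus on the same side, with old heart 1 closest to the young level.

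Levels of different genes were compared per kilobase of annotated exon, in young hearts. Cdkn1c was the highest, at 27.2 ± 1.65 CPM per kilobase (SD, n = 3), above 91.0% of all genes tested. Igf2r (12.7 ± 0.59) and Blcap (12.6 ± 1.13) followed and overlapped each other, then Snrpn (10.3 ± 1.19), Grb10 (8.83 ± 0.80) and Igf2 (8.08 ± 0.69), where Grb10 overlapped both neighbours in the order. Impact, Gnas and Airn lay between 5.56 and 5.06. Ddc and Nnat were low even in young hearts, at 1.22 and 1.28, and Kcnq1ot1, a very long transcript, stood at 0.0559. In old hearts Cdkn1c stood at 15.5 ± 1.11 and Gnas at 1.72 ± 0.20 CPM per kilobase, while Impact stood at 9.13 ± 0.44, above Gnas and Igf2. This order depended on the length used, here that of all annotated exons. In the young columns of the authors' deposited FPKM table Ube3a stood at 2.73 to 3.15 against 0.761 per kilobase here, Sgce at 4.31 to 5.67 against 1.49, and Ndn at 3.95 to 4.73 against 2.07. On that FPKM scale Impact, at 7.87 to 8.14, lay clear of Gnas, at 4.74 to 5.71.

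A second list of 53 further imprinted genes had 31 genes tested, of which 2 were higher and 3 lower (16.1% called, against 15.1% of all genes), with a median of -0.04. Kcnq1, the potassium channel gene whose intron holds the start of Kcnq1ot1, stood at 24.0, 20.6 and 22.8 CPM in young hearts and 10.03, 14.6 and 13.6 CPM in old hearts, and fell by 0.82 ± 0.17 (edgeR adjusted p = 0.0151) beside Cdkn1c. Ago2, an Argonaute protein of microRNA silencing, and Gab1, a docking protein of growth factor receptors, were lower, at -0.52 ± 0.14 (adjusted p = 0.0347) and -0.45 ± 0.12 (0.0401). Nap1l5, a paternally expressed retrogene, was higher by 1.77 ± 0.32 (0.00849), and Tspan32, a tetraspanin of blood cells, by 2.05 ± 0.49 (0.0239) from a young mean of 0.244 CPM. The count of the second list fell to 0 higher and 0 lower without young heart 1 or 2, was 1 and 0 without young heart 3, 1 and 1 without old heart 3, and 6 and 4 without old heart 1 (37.9% of all genes).

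Of 20 listed genes that set, read or erase imprints, 17 were tested and 3 (17.6%) were called, with a median of 0.05. Among the TET enzymes, which oxidise 5-methylcytosine, Tet3 (-1.01 ± 0.18, edgeR adjusted p = 0.00836) and Tet1 (-1.70 ± 0.44, 0.0307) were lower and Tet2 was higher (0.65 ± 0.16, 0.0245) in old hearts. The maintenance methyltransferase Dnmt1 stood at 19.4, 20.8 and 21.5 CPM against 18.8, 20.7 and 20.8 CPM, a value of -0.04 ± 0.13. Zfp57 and its partner Trim28 were not called, at 0.52 ± 0.29 and 0.05 ± 0.15. The count of 3 was 0 without young heart 2, 1 without young heart 1 or 3 or old heart 3, and 7 without old heart 1 (37.9% of all genes).

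Some markers of cell types were also called, beside 15.1% of all genes tested, and their part in the results on imprinted genes was not tested. Of 10 cardiomyocyte markers 4 were called: Myh6 (-0.75 ± 0.15), Actc1 (-1.23 ± 0.16) and Pln (-0.61 ± 0.15) fell and Myl2 (0.58 ± 0.15) rose. Of 7 atrial markers tested, Stard10 rose (1.20 ± 0.18), and it was highest in old heart 2 (62.6 CPM), unlike the summed markers. Of the 7 values, 5 were above 0 and 2 below, Sbk2 (-0.84 ± 0.32) and Nppa (-0.06 ± 0.64), neither of them called. Of 10 markers of smooth muscle and pericytes, Kcnj8 (-0.56 ± 0.12) and Abcc9 (-0.66 ± 0.14) fell. Of the 10 values, 5 were above 0 and 5 below. Myh11 (0.60 ± 0.37), Acta2 (0.51 ± 0.36), Tagln (1.035 ± 0.45) and Cnn1 (1.42 ± 0.53) were above 0 and not called. The sums of this list were 3198 to 3313 CPM in young and 2884 to 3477 CPM in old hearts. The 1 epicardial and 2 adipocyte markers tested were not called. Of 10 fibroblast markers, 2 fell (Col1a1 and Col3a1) and none rose, and their summed level was 1925 to 2693 CPM in young and 1466 to 2430 CPM in old hearts, highest of the old in heart 1. Of 10 endothelial markers 3 fell (Pecam1, Cdh5 and Tie1), with sums of 1751 to 1865 CPM against 1260 to 1526 CPM. Of 10 proliferation markers 8 were tested and Top2a fell, with sums of 20.5 to 45.5 CPM against 17.8 to 19.6 CPM. Schwann cell and neuron markers summed to 32.3 to 40.2 CPM against 46.5 to 58.7 CPM. Of 6 tested, Uchl1 rose, while Dbh had a value of -0.61 ± 0.53 and was not called. Macrophage markers summed to 304.9 to 383.3 CPM against 415.0 to 654.3 CPM. Of 8 tested, C1qa and Fcgr1 rose and the other 6 were not called, among them Csf1r (0.10 ± 0.12) and Adgre1 (-0.11 ± 0.19). The highest sum was that of old heart 1, where Lyz2 stood at 344.8 CPM.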

How the data were processed

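RNA from 3 young and 3 old mouse hearts was sequenced by a commercial provider; nothing says whether the hearts share litters. Per the submitters' processing notes the tools were HISAT2, Subread and featureCounts on GRCm38.p6, with no versions or strand setting. The authors deposited raw counts per gene for 44200 models and FPKM for 13170 genes. Here, 571 models with no name (0.295 to 0.368% of counts) were left out, CPM was scaled by TMM factors, and old was compared with young in edgeR 4.0.16 (R 4.3.3; filterByExpr, quasi-likelihood test, Benjamini-Hochberg over 14413 genes), tested on simulated data first. The approximate SE is the size of the log2 fold change over the root of the F statistic. Alternatives were 2 other scalings (RLE, upper quartile), other low-count filters, DESeq2 1.42.0, limma 3.58.1 (voom, and deposited FPKM with pseudocounts of 1 and 0.1), a replicate block, and each heart left out. The members and all lists were chosen with earlier results of these data known. Every listed gene is accounted for; from other lists, called genes and defining markers are named. Exons and overlaps come from GENCODE M21, promoters and microRNA genes from RefSeq.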

Additional observations from a re-analysis of the deposited data

How the results depend on the processing

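Over 15 alternatives, of which 9 left out no library and 6 left out 1 heart each, the 26 imprinted rows gave 377 values. Of these, 335 kept direction and side of the threshold, 18 lost a call, 17 gained one and 7 changed sign. Gnas, Ddc, Mest, Cdkn1c and Impact were called under all 15. The median of the imprinted rows stayed between -0.208 and -0.4. Leaving out 1 heart moved the counts of imprinted genes called to 4 to 10 lower and 1 to 4 higher. The whole table moved to 539 to 5570 called, and the second list to 0 to 6 higher and 0 to 4 lower. The IGF axis moved to 0 to 7 and the imprint maintenance list to 0 to 7. Each of these fits held 1 heart fewer, and the cause of the moves was not tested. Leaving out 1 heart moved Rian (-1.84 to 0.759), Asb4 (-0.448 to 0.215) and Airn (-0.243 to 0.0057) across 0. Of the second list 1 gene was higher with the CPM filter and on both FPKM scales, and 1 was lower on both FPKM scales. The IGF axis count was 1 with upper-quartile factors, limma-voom and both FPKM scales. With a pseudocount of 1 the FPKM scale shrank the low genes, to -0.863 for Ddc and -0.924 for Nnat. Labels number the hearts 1 to 3 in both ages. Deviations of same-numbered hearts correlated at -0.087 to 0.033, and those of differently numbered hearts at -0.1 to 0.15. These values show no sign of pairing, but with 3 hearts per age they cannot settle whether the numbers pair hearts. The replicate block called 1774 genes in place of 2174, left 1 imprinted gene higher (Zrsr1 was lost) and 7 lower, and 1 gene each in the lower second list and the IGF axis. Depth limited Zim1, Meg3, Phlda2 and a Rian row, which held at most 13 counts in any library and did not pass the filter.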
